A study of Mus musculus with 8 samples.

Results

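Endothelial identity genes are transcripts by which the cells that line blood vessels are commonly recognised. The 10 genes taken here were Pecam1, Cdh5, Vwf, Emcn, Esam, Egfl7, Robo4, Erg, Tie1 and Eng, matched by symbol among the 24028 Entrez genes of the deposited tables. They were measured in bulk RNA of 8 tumours grown from TRAMP-C2, a mouse line derived from a prostate adenocarcinoma, after 1 M cells were injected into the dorsolateral prostate of male C57BL/6 hosts. 4 tumours grew in aged hosts (20 to 24 months old) and 4 in young hosts (4 months old), and all were taken between day 30 and day 45. Both groups received the same cells, so host age was the labelled difference between them. Tumours are named by host group and mouse number, and mouse numbers do not pair the groups. In all, 19 aged and 20 young hosts had been injected, and the choice of the 4 tumours per group is not given in the sources used here. The question was whether the 10 genes differed with host age and whether they moved together from tumour to tumour, as they would if the tumours differed in vessel content.

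Endothelial cells hold together through adherens and tight junctions, carry surface receptors that sense growth factors and guidance cues, and store clotting proteins for release into blood. ETS family transcription factors, of which Erg is a member, bind a short GGA core and are known regulators of many endothelial genes. In a transplanted tumour the endothelium comes largely from the host. None of the genes is strictly private to endothelium. Platelets also carry Pecam1 and Vwf, some leukocytes carry Pecam1, and Eng occurs on activated macrophages and stromal cells. In bulk RNA, fewer endothelial cells and less of a transcript per cell cannot be told apart.

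Promoter sequences were looked up because one of the genes encodes a factor whose family binds a known short motif. RefSeq promoter entries (GRCm38.p6) were matched for 6 of the 10 genes, namely Emcn, Egfl7, Robo4, Erg, Tie1 and Eng, with 10 windows in all. The bases before the annotated start are shown for a receptor (Tie1, chr4:118489850-118490099, minus strand), a co-receptor (Eng, chr2:32646345-32646594, plus strand), a secreted protein (Egfl7, chr2:26580833-26581082, plus strand) and a surface mucin (Emcn, chr3:137340828-137341061, plus strand). Capitals mark AGGAAG or CGGAAG, the 2 forms of the ETS motif searched, on either strand (CTTCCT and CTTCCG as reverse complements).
Tie1: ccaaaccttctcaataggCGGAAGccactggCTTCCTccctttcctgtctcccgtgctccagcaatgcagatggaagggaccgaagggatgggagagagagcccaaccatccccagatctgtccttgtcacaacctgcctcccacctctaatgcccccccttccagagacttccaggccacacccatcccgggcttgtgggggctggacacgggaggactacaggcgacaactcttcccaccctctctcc
Eng: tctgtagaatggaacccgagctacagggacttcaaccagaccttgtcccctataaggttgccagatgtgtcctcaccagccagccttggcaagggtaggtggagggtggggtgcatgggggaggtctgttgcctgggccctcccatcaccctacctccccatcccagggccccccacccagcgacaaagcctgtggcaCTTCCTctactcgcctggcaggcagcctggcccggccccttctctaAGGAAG
Egfl7: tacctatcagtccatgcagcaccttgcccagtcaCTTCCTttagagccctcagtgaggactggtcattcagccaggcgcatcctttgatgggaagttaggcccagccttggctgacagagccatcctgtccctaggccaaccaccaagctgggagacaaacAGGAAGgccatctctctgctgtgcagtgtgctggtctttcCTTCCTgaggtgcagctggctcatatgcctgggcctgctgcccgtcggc
Emcn: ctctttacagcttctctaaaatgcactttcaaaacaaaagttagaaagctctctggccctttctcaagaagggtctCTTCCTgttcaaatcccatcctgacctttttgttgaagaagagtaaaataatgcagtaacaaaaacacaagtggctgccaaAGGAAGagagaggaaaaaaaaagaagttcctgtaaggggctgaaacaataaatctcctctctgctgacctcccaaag
AGGAAG was found in 7 of the 10 windows, against 29.5% of the 32851 promoter windows of the whole table. Each of the 6 genes had it in at least 1 window, but the share of all genes that do was not computed. CGGAAG was found in 1 window, that of Tie1 shown above, against 13.6% of all windows. Either form was found in 7 of the 10 windows, against 39.2% of all. Egfl7 and Erg had more than 1 window each. Beside the Egfl7 window shown, with 3 matches of either form, its others had 1 and 0. The windows of Erg, not shown, had 1, 0 and 0. The motif searched for GATA factors, AGATAA, was found in 1 window against 9.99% of all. The motif searched for SOX factors, AACAAT, was found in 2 windows against 9.42% of all. TATAAA was found in 1 window, against 12.4% of all. Windows of 1 gene can overlap, though those of Egfl7 and Erg did not. A match of letters is not evidence that a factor binds there.

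Junction and surface proteins are given first. Pecam1 (chromosome 11, 106654213 to 106715281, minus strand), an adhesion molecule at endothelial cell contacts, was measured at 60.8, 118.5, 80.6 and 134 CPM (fragments of the gene per 1 M fragments counted) in aged 46, 47, 50 and 51. In young 36, 37, 40 and 43 it was at 83.2, 91.9, 99.95 and 94.4 CPM. The young values lay close together and inside the range of the aged ones, which reached both lower and higher. Cdh5 (chromosome 8, 104101613 to 104144504, plus strand), the cadherin of endothelial adherens junctions, was at 63.3, 87.7, 65.6 and 85.2 CPM in the aged tumours and at 73.0, 81.8, 81.8 and 103 CPM in the young ones, in the same order. Young 43 was highest and the groups overlapped. Esam (chromosome 9, 37528089 to 37538319, plus strand), a tight junction adhesion molecule, was at 21.2, 34.6, 26.4 and 34.5 CPM in the aged tumours and at 28.3, 33.1, 32.3 and 30.2 CPM in the young ones. Aged 46 and aged 50 were the lowest of the 8 tumours, aged 47 and aged 51 the highest. Emcn (chromosome 3, 137341062 to 137431069, plus strand), a mucin-like protein of capillary and venous endothelium, was at 21.9, 29.9, 23.7 and 29.8 CPM in the aged tumours and at 27.7, 27.2, 31.4 and 23.9 CPM in the young ones. It varied least of the 10 genes, with the highest tumour 1.43 times the lowest.

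Among the receptors, Tie1 (chromosome 4, 118471191 to 118489849, minus strand), the orphan receptor that modulates angiopoietin signalling, was at 26.6, 47.9, 35.0 and 49.9 CPM in aged 46, 47, 50 and 51. In young 36, 37, 40 and 43 it was at 35.4, 40.03, 44.8 and 38.7 CPM. Aged tumours were both the lowest and the highest. Robo4 (chromosome 9, 37401902 to 37414023, plus strand), an endothelial roundabout receptor linked to vessel stability, was at 9.07, 17.4, 13.3 and 20.3 CPM in the aged tumours and at 10.8, 13.5, 15.8 and 17.4 CPM in the young ones. Its groups overlapped almost fully. Eng (chromosome 2, 32646595 to 32682669, plus strand), endoglin, a co-receptor for TGF-beta family ligands, was at 35.7, 64.8, 72.8 and 65.9 CPM in the aged tumours and at 49.9, 47.8, 72.2 and 61.0 CPM in the young ones. Aged 50 and young 40 were highest at nearly the same level.

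The secreted proteins and the transcription factor completed the set. Vwf (chromosome 6, 125552948 to 125686679, plus strand), von Willebrand factor, the clotting protein that captures platelets, was at 19.4, 40.8, 32.8 and 40.04 CPM in aged 46, 47, 50 and 51. In young 36, 37, 40 and 43 it was at 13.6, 17.7, 26.4 and 11.9 CPM. Aged 47, 50 and 51 lay above every young tumour, aged 46 lay between young 37 and young 40, and the groups therefore overlapped. Egfl7 (chromosome 2, 26581083 to 26592682, plus strand), a secreted matrix protein of growing vessels, was at 30.8, 50.3, 42.5 and 32.5 CPM in the aged tumours and at 43.1, 46.6, 47.1 and 36.9 CPM in the young ones. Aged 51, which was high in most of the other genes, was low here. Erg (chromosome 16, 95359169 to 95586600, minus strand), an ETS factor that maintains endothelial identity, was at 7.15, 11.9, 9.96 and 11.98 CPM in the aged tumours and at 7.90, 7.98, 9.81 and 9.52 CPM in the young ones. Aged 47, 50 and 51 lay above all young tumours and aged 46 below them. Exons of Egfl7 share 264 bases with Gm20532 on the same strand and 64 with Agpat2 on the opposite strand, and exons of Eng share 61 bases with Fpgs on the opposite strand. Whether the counting used strand is not given in the sources used here, and the counts of Egfl7 and Eng are less certain for it.

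**Figure D1:**
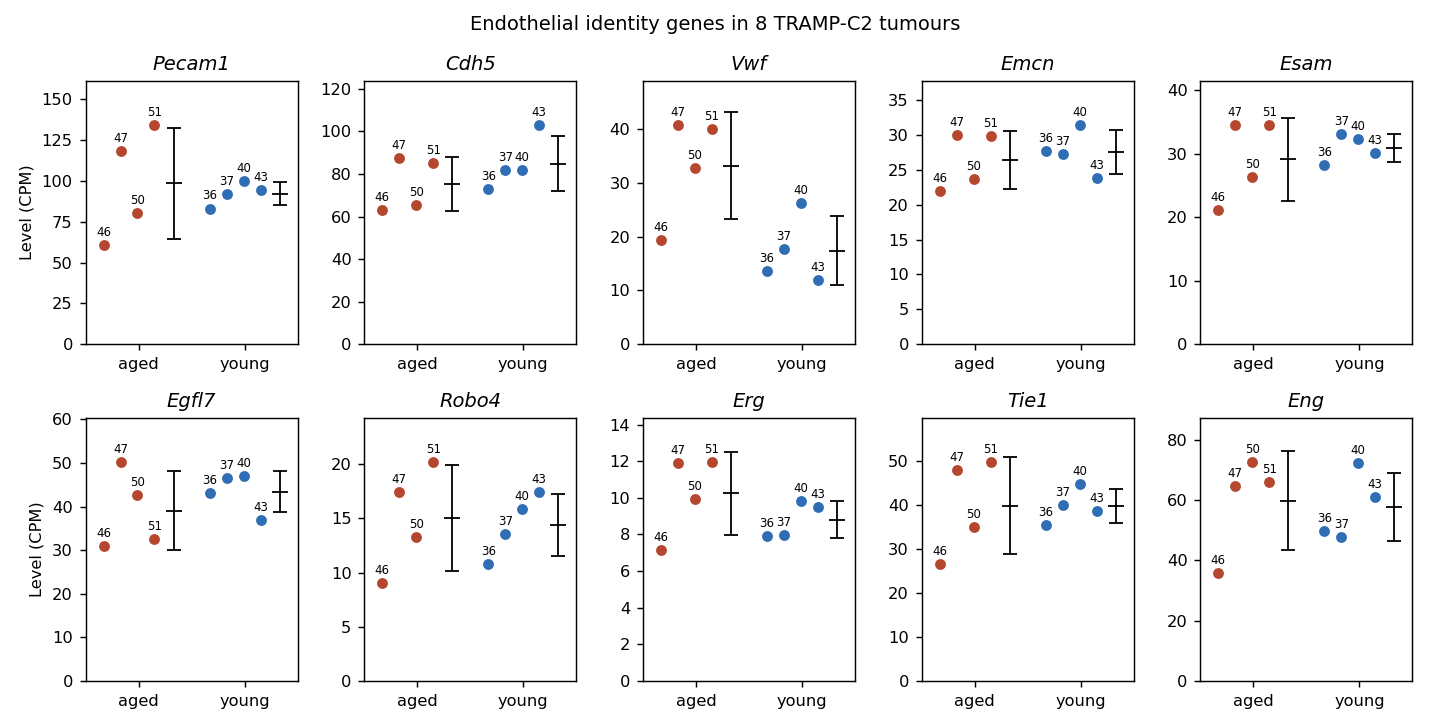
Level of each gene in CPM (vertical axes, each starting at 0) in the 4 aged (red) and 4 young (blue) tumours, with mouse numbers beside the points and the mean ± SD as black bars. Vwf averaged 33.3 CPM among aged tumours and 17.4 CPM among young ones, and the points of the groups overlap in all 10 panels.

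Depth ran from 27.1 M fragments in young 37 to 35.7 M in young 43. A count of 3 fragments therefore stood for 0.084 to 0.111 CPM, counting error alone considered. The lowest count behind any value of the 10 genes was 216 fragments (Erg). Transcripts of neighbouring tissue stood out in at least 4 tumours. List means, here and below, were taken over the genes of a list that passed the filter on low counts. For the seminal vesicle secretory genes these were 3 of 7 (Svs2, Svs4 and Svs5). Their mean was 13.42 log2 CPM in young 36 and 11.22 in aged 50 but at most 1.75 in the others. For skeletal muscle they were 5 of 7 genes, with a mean of 4.00 in aged 51 and at most 2.14 (young 40) elsewhere. The mean of 6 normal prostate secretory genes was 6.39 in young 36, 6.15 in aged 50 and 5.01 in young 37, and at most 3.23 elsewhere. In young 37 this came from Sbp (7523 CPM) and Spink1 (3580 CPM). Results were also computed without aged 50, young 36 and aged 51, and, as an alternative chosen after seeing the data, without young 37 as well.

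Per unit of transcript length, the scale on which genes can be compared with each other, Pecam1 was the most abundant of the 10 genes and Vwf the least. Median FPKM (CPM per kilobase of transcript, as deposited) over the 8 tumours was 27.9 for Pecam1, 26.3 for Egfl7, 20.5 for Cdh5, 17.6 for Eng and 16.8 for Esam. It was 9.28 for Tie1, 6.42 for Emcn, 3.71 for Robo4, 2.79 for Erg and 1.65 for Vwf. From Esam downward each gene exceeded the next in 8 of 8 tumours. Above it the order was less fixed, with Pecam1 above Egfl7 in 4, Egfl7 above Cdh5 in 6, Cdh5 above Eng in 7 and Eng above Esam in 3 of 8 tumours. The deposited size of the Vwf transcript, 13838 bases, is 1.57 times the longest GENCODE transcript of the gene (8834 bases). With GENCODE lengths Vwf had a median of 2.59 CPM per kilobase and was still last by median, but Robo4 (2.97) then exceeded it in only 4 of 8 tumours.

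Host age was tested with edgeR's quasi-likelihood test over the 14575 genes that passed the filter on low counts, which all 10 genes did, with Benjamini-Hochberg adjustment over all of them. None of the 10 genes passed an adjusted p of 0.05. The background was 0% of all genes called by edgeR, with 0.295% called by DESeq2 (43 genes) and 0.0617% by limma voom (9 genes), and no endothelial identity gene was among either. At an unadjusted p under 0.05 the share was 4.99% of all genes in either direction and 2.34% higher in aged tumours, and 1 of the 10 genes, Vwf, met it. The groups failed to overlap for 3.66% of all genes and for 0 of the 10. Fold changes, as log2 aged minus young, were above 0 for 6 of the 10 genes and below 0 for 4, with a median of 0.04 against 0.03 over all genes. The median moved between -0.12 without aged 51 and 0.19 without aged 46.

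The largest difference among the 10 genes was that of Vwf. Its level was 33.3 ± 9.95 CPM among aged tumours and 17.4 ± 6.45 CPM among young ones (mean ± SD, n = 4 each). The log2 fold change was 0.95 ± 0.29 (SE). Its unadjusted p was 0.0095, place 131 among all genes tested, and its adjusted p was 0.92 by edgeR, 0.207 by DESeq2 and 0.144 by limma voom. Erg followed at 0.23 ± 0.20, from 10.3 ± 2.27 and 8.80 ± 1.00 CPM. Pecam1 at 0.11 ± 0.23, Robo4 at 0.08 ± 0.25, Eng at 0.06 ± 0.21 and Tie1 at 0.02 ± 0.19 had fold changes smaller than their standard errors. Emcn at -0.05 ± 0.15 and Esam at -0.08 ± 0.17 did too. Cdh5 at -0.16 ± 0.15 and Egfl7 at -0.15 ± 0.16 were slightly lower in aged tumours. The ± values are standard errors, so with 4 tumours a group changes larger than their width remain possible. The p-values set the group difference against the spread between tumours of a single experiment.

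The aged tumours spread more widely than the young ones in the level of these genes, as they did for most genes tested. The SD of log2 CPM was larger among aged than among young tumours for 9 of the 10 genes, all but Vwf, against 71.9% of all genes tested. For Pecam1 the SD was 0.52 in aged and 0.06 in young tumours, for Tie1 0.41 and 0.10, and for Esam 0.33 and 0.08. The median ratio of the SDs was 1.83 over the 10 genes and 1.44 over all genes. Without aged 46 the SD was larger among aged tumours for 8 of the 10 genes, against 62.5% of all genes. This difference in spread was not tested.

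Several tumours were low or high in most of the 10 genes together. By CPM, aged 46 was the lowest of the 8 tumours for 9 of the 10 genes, all but Vwf. After TMM scaling, which adjusts for differences in composition, it was lowest for 7, with Cdh5 and Emcn lowest in aged 50. By the same scaling 19.3% of all genes were lowest in aged 46. After scaling, aged 51 was the highest tumour for 7 of the 10 genes, against 23.2% of all genes. By CPM it was highest for 4, and aged 47 for 3. Relative to each gene's mean over the 8 tumours, 0 of the 10 genes were above it in aged 46, 4 in aged 50, 10 in aged 47 and 9 in aged 51. Among young tumours 2 were above it in young 36, 5 in young 37, 9 in young 40 and 5 in young 43. The median deviation was -0.37 in aged 46 and 0.35 in aged 51 on the log2 scale, and between -0.10 and 0.11 in the young tumours.

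**Figure D2:**
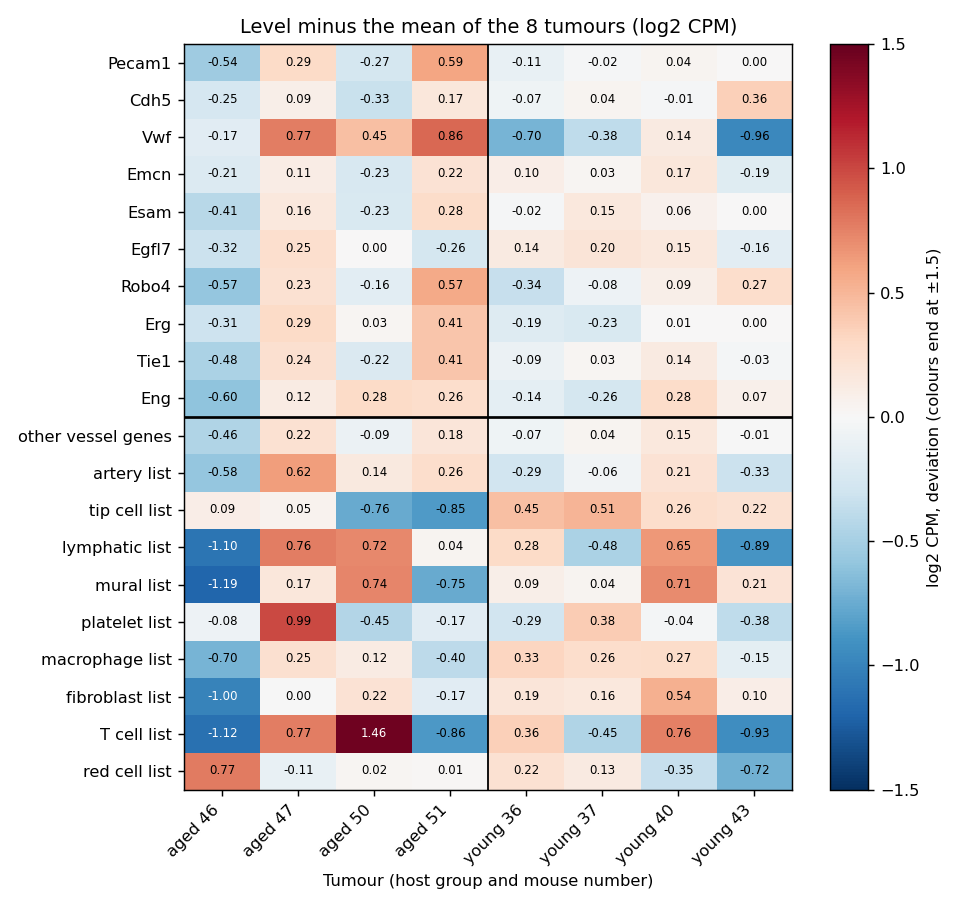
Deviation of each gene (rows above the line) and of the mean of 10 marker lists (rows below it) from its mean over the 8 tumours, in log2 CPM after TMM scaling, by tumour (columns). The column of aged 46 is below the mean for all 10 genes and those of aged 47 and aged 51 are mostly above it, with Vwf low in young 36 and young 43.

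Other markers also moved with aged 46. It was the lowest of the 8 tumours in the means of the macrophage (7.30 log2 CPM, against 7.60 to 8.32 in the others), fibroblast (7.75, against 8.58 to 9.29), T cell (0.97, against 1.16 to 3.55) and mural cell lists (3.07, against 3.51 to 5.0). It was the highest in the mean of the red cell list (4.34, against 2.85 to 3.79). The part of these in the low level of the endothelial genes was not tested. Aged 51 was the highest of the 8 tumours in the mean of the skeletal muscle list (4.00 log2 CPM, against -0.45 to 2.14 in the others). It was also highest in the mean of the capillary list (5.51, against 3.09 to 5.24). The part of neighbouring host tissue in the high level of the endothelial genes in aged 51 was not tested.

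To ask whether the 10 genes moved as vessel content would, each was set against the mean log2 CPM of 20 other genes typical of blood vessel endothelium, such as Kdr, Tek, Cldn5, Sox17 and Plvap, none of them among the 10. This vessel mean was 3.53, 4.21, 3.90 and 4.17 in aged 46, 47, 50 and 51, and 3.92, 4.03, 4.14 and 3.98 in young 36, 37, 40 and 43. Aged 46 was lowest and aged 47 highest, and the young tumours lay between them. In edgeR, with host age in the model, a slope of 1 means that a gene changed in proportion to the vessel mean. All 10 slopes were above 0, with a median of 1.06 against 0.04 over all genes tested. The slope was 1.72 ± 0.47 for Vwf, 1.46 ± 0.44 for Robo4 and 1.44 ± 0.33 for Pecam1 (± SE). It was 1.22 ± 0.28 for Tie1, 1.14 ± 0.42 for Eng, 0.97 ± 0.39 for Erg and 0.94 ± 0.28 for Esam. These 7 had an unadjusted p under 0.05, as had 3.37% of all genes in the rising direction. The slope was 0.60 ± 0.32 for Emcn, 0.54 ± 0.36 for Cdh5 and 0.52 ± 0.37 for Egfl7, which did not. No gene of all those tested passed the adjusted threshold (0%), and the lowest adjusted p of the 10 genes was 0.83.

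The unadjusted p-values of the slopes depended on aged 46. Without it 2 of the 10 genes, Pecam1 (1.82 ± 0.70) and Tie1 (1.58 ± 0.57), had an unadjusted p under 0.05, as had 0.416% of all genes in the rising direction, and the median slope was 1.14 against 0.06 over all genes. Without aged 50, young 36 and aged 51, 4 did, against 9.31% of all genes, with a median slope of 0.96. Without young 37 as well, 3 did, against 8.26% of all genes, with a median slope of 0.97 and 1 residual degree of freedom. Without aged 51 alone the median slope of the 10 genes was 0.94. With all tumours, the tested genes of the skeletal muscle list had a median slope of 5.27 on the vessel mean. The part of muscle or other host tissue in the slopes of the 10 genes was not tested. Lists of other cell types were put in place of the vessel genes after the data had been seen. The median slope of the 10 genes was then 0.42 on the fibroblast list, 0.19 on the macrophage list, 0.06 on the mural list and 0.01 on the T cell list. At an unadjusted p under 0.05, 2 of the 10 genes had a rising slope on the fibroblast list, against 13.8% of all genes. On the macrophage list 1 did, against 15.4%, on the mural list 1, against 14.6%, and on the T cell list 1, against 16.8%. Beside those shares, none of these counts is a result about the 10 genes. These lists spread more widely between tumours than the vessel list (SD among aged tumours 0.44 to 1.25 log2 CPM, against 0.32), so their slopes are not on the same scale.

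**Figure D3:**
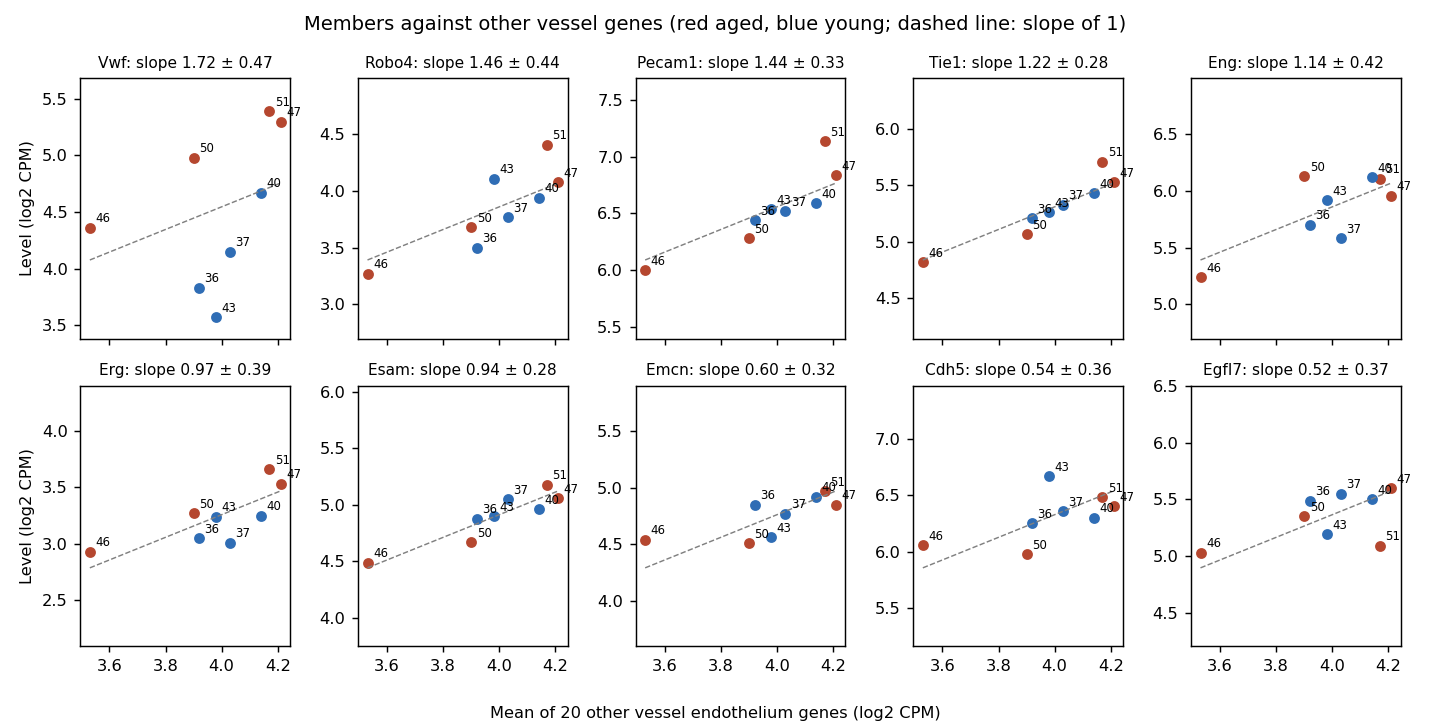
Level of each gene (vertical axes, log2 CPM) against the mean of 20 other vessel genes (horizontal axes, log2 CPM) in 4 aged (red) and 4 young (blue) tumours, ordered by slope. The dashed line through the means has a slope of 1. Tie1, Pecam1 and Esam lie close to a line. In Vwf aged 47, 50 and 51 lie above all young tumours, and aged 46 lies below young 40.

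Pearson correlations with the vessel mean were computed over the 8 tumours without regard to host age, 10 of them, with exact 2-sided permutation p-values over all pairings of the 8 values. The correlation was 0.94 for Tie1 (p = 0.0003), 0.91 for Esam (p = 0.0015), 0.88 for Pecam1 (p = 0.0033) and 0.84 for Robo4 (p = 0.0089, exact permutation). Spearman's rho was 0.98, 0.95, 0.95 and 0.79 for these genes, with exact permutation p-values of 0.0004, 0.0011, 0.0011 and 0.0279. Without aged 46 and aged 47, the tumours farthest from the median vessel mean, r was 0.94, 0.83, 0.83 and 0.75. Eng (r 0.76, p = 0.0303; rho 0.33, p = 0.4279, exact permutation) fell to an r of 0.34 without these 2 tumours, so its relation rests on them. Emcn had an r of 0.72 (p = 0.0257) and a rho of 0.83 (p = 0.0154, exact permutation), and Erg an r of 0.74 (p = 0.0283) and a rho of 0.67 (p = 0.0831, exact permutation). Without the same tumours r was 0.74 for Emcn and 0.59 for Erg. Cdh5 (r 0.58, p = 0.1342; rho 0.69, p = 0.0694), Egfl7 (r 0.54, p = 0.1621; rho 0.55, p = 0.171) and Vwf (r 0.42, p = 0.3161; rho 0.50, p = 0.2162) did not pass the exact permutation test. Without those tumours r was 0.43 for Cdh5, -0.26 for Egfl7 and 0.50 for Vwf. Over all genes tested, 2.87% had a rising correlation at an unadjusted permutation p under 0.05. Adjusted over all genes, the permutation p-values of the 10 genes were 0.855 to 0.875 for Pearson's r and 1 for Spearman's rho.

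Host age was then tested with the mean of the 20 vessel genes set equal across tumours, so that a gene that only tracked vessel genes would show no difference. Vwf was higher in aged tumours by 0.99 ± 0.24 on this scale, with an unadjusted p of 0.0013 and an adjusted p of 0.90 by edgeR. Erg was at 0.27 ± 0.24, and the other 8 genes lay between -0.10 and 0.12. Vwf was the 1 gene of 10 higher at an unadjusted p under 0.05, as were 2.13% of all genes, and 0% of all genes passed the adjusted threshold. As a ratio of CPM to that of Cdh5 in the same tumour, Vwf ranged from 0.306 to 0.4998 in aged and from 0.116 to 0.323 in young tumours. For Erg the ratio ranged from 0.113 to 0.152 in aged and from 0.0923 to 0.120 in young tumours. Both pairs of ranges overlapped, and Cdh5 itself was slightly lower in aged tumours. Vwf was higher in aged tumours without each of the 8 tumours in turn, always at an unadjusted p under 0.05. Without aged 50, young 36 and aged 51 together, the test with TMM scaling no longer gave it (0.71, unadjusted p 0.1255), and the test relative to the vessel genes still did (0.84, unadjusted p 0.0273). Without young 37 as well, neither did (0.69, unadjusted p 0.2201, and 0.83, unadjusted p 0.1067).

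**Figure D4:**
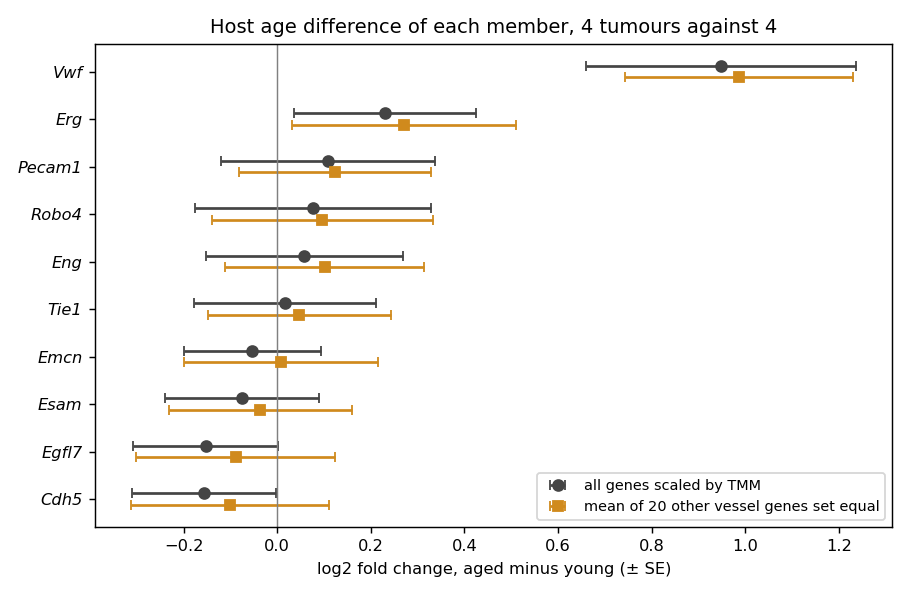
log2 fold change of each gene, aged minus young, with its SE (horizontal axis), after TMM scaling (circles) and with the mean of 20 other vessel genes set equal (squares). Vwf lies at 0.95 and 0.99, and the other 9 genes lie between -0.16 and 0.27.

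Vwf is also made by megakaryocytes and lymphatic endothelium, so their markers were set beside it. Of 9 platelet genes 5 passed the filter, and 4 of these were higher and 1 lower in aged tumours, none past an unadjusted p of 0.05. The mean of the platelet list was 0.90 to 2.34 log2 CPM in aged and 0.97 to 1.73 in young tumours, highest in aged 47 and lowest in aged 50. The platelet receptor genes Gp9 (0 to 0.0693 CPM) and Gp6 (0 to 0.0370 CPM) were below 3 fragments' worth in every tumour. Gp1ba and Gp1bb of the same list were above it in every tumour. Gp1ba was at 0.279 to 0.596 CPM in aged and 0.336 to 0.589 CPM in young tumours. Gp1bb, the 1 lower gene, was at 0.310 to 0.629 CPM in aged and 0.589 to 0.887 CPM in young tumours. Pf4 and Ppbp were both highest in aged 47. Pf4 was at 15.55 to 80.0 CPM in aged and 16.7 to 42.2 CPM in young tumours. Ppbp was at 0.25 to 9.15 CPM in aged and 0.21 to 1.96 CPM in young tumours. Itga2b, the platelet integrin chain, was at 11.7 to 19.8 CPM in the aged hosts' tumours and 11.4 to 14.0 CPM in the young hosts'. The lymphatic list had 4 of 6 tested genes higher in aged tumours, with means of 1.99 to 3.85 log2 CPM in aged and 2.20 to 3.74 in young. Lyve1, a hyaluronan receptor of lymphatic endothelium and some macrophages, was at 13.5, 26.8, 27.9 and 37.5 CPM in the aged and at 11.7, 13.3, 15.8 and 6.63 CPM in the young tumours. Its log2 fold change was 1.17 ± 0.34 with an unadjusted p of 0.0073 and an adjusted p of 0.92 by edgeR. Without aged 50, young 36 and aged 51 it was 0.78, with an unadjusted p of 0.1151. Prox1, the factor that defines lymphatic endothelium, was at 0.217 to 1.94 CPM among aged tumours and 0.252 to 1.35 CPM among young ones. The part of these cells in the Vwf difference was not tested.

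Other genes of the same pathways gave no call by edgeR at an adjusted p of 0.05. At an unadjusted p under 0.05, 4.99% of all genes were called, in either direction. Of the 20 other vessel genes, 9 were higher and 11 lower in aged tumours, with a median log2 fold change of -0.015, and 1 was past an unadjusted p of 0.05. That was Bcl6b, a transcriptional repressor of endothelium, at 8.21, 11.3, 7.97 and 2.95 CPM in the aged and 15.1, 13.2, 13.1 and 15.6 CPM in the young tumours. Its groups did not overlap, and its log2 fold change was -0.91 ± 0.33. Its unadjusted p by edgeR was 0.022 with all tumours and 0.054 without young 36. Without aged 50, young 36 and aged 51 its fold change was -0.50, with an unadjusted p of 0.060. Of 17 ligands, receptors and binding partners of the 10 genes, 15 were tested, and 5 were higher and 10 lower in aged tumours, with 1 past an unadjusted p of 0.05. That was Slit2, a ligand of the roundabout family, at 48.6, 70.1, 57.9 and 63.8 CPM in the aged and 66.1, 72.2, 88.4 and 146 CPM in the young tumours (log2 fold change -0.62 ± 0.24). Young 43 was far above the others, and without it the fold change was -0.32 with an unadjusted p of 0.057; the unadjusted p was also above 0.05 without aged 46 or aged 50. Unc5b, a receptor that binds Robo4, was at 14.6 to 52.3 CPM among aged tumours and 39.1 to 63.7 CPM among young ones. Tgfbr2, the type II receptor with which Eng acts, was at 180 to 344 CPM among aged tumours and 350 to 440 CPM among young ones, without overlap, at a log2 fold change of -0.36 ± 0.19 and an unadjusted p of 0.088 (-0.20 without aged 46). Gdf2 and Bmp10, circulating ligands of Eng, were at or near 0 in all 8 tumours. Of 6 further ETS factors of endothelium 5 were tested, and 2 were higher and 3 lower in aged tumours, none past an unadjusted p of 0.05. The largest of these differences was that of Elf1 (0.32 ± 0.18, and 0.16 without aged 51).

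Mural cells are the pericytes and smooth muscle around vessels. Of 12 mural genes 4 were higher and 8 lower in aged tumours, against 8060 higher and 6515 lower of all 14575 genes tested. Their median log2 fold change was -0.245, against 0.031 over all genes. Past an unadjusted p of 0.05 by edgeR were 3, all of them lower, against 4.99% of all genes in either direction. Pdgfrb, the receptor by which pericytes are recruited and which fibroblasts also carry, was at 75.9, 129, 159 and 104 CPM in the aged and 189, 183, 225 and 266 CPM in the young tumours. The groups did not overlap. Its log2 fold change was -0.88 ± 0.20, with an adjusted p of 0.83 by edgeR, 0.023 by DESeq2 and 0.106 by limma voom. Of 7 fibroblast markers, Pdgfrb itself being 1 of them, 6 were lower in aged tumours. The list means, Pdgfrb included, were 7.75 to 8.97 log2 CPM in aged and 8.85 to 9.29 in young tumours. The part of fibroblasts in the Pdgfrb difference was not tested.

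The genes whose pattern was most like that of the 10 were ranked by Pearson's r between their log2 CPM and the mean standardized level of the 10 genes over the 8 tumours, among 12505 genes on no marker list whose log2 CPM averaged 0 or more. They were Scarf2 (r 0.962), Arhgap6 (0.961), Fbln5 (0.947), Pdgfd (0.933) and Palmd (0.928), with Spearman's rho of 0.929, 0.929, 0.929, 0.833 and 0.762. Scarf2 encodes a scavenger receptor family protein, Fbln5 an elastic fibre protein and Pdgfd a platelet-derived growth factor chain. Their functions were not used in the choice. The median r over all 14575 genes tested was 0.026. They were picked for their likeness from a large number of genes, so these values are a description.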

How the data were processed

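Per the labels' protocols, TruSeq mRNA libraries were made from 1 µg of RNA of each tumour and read as 50 bp paired ends. Named in the submitters' processing notes are GRCm38 (mm10), Picard 2.7.1, TopHat2 2.0.12 and bcl2fastq. The sources used here do not give the counting program, its annotation or its use of strand. The authors deposited fragment counts for 24028 Entrez genes, per the file headers. The deposited FPM values are CPM, each count over its tumour's total, and the deposited FPKM values divide that CPM by the transcript size in the table. 27 symbols turned into dates were restored from RefSeq, and 5 were missing.

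The tests on counts used edgeR 4.0.16 (R 4.3.3, filterByExpr with minimum count 10 and total 15, TMM, robust quasi-likelihood, prior count 2), with Benjamini-Hochberg adjustment over 14575 genes and a threshold of 0.05. The 3 tests were host age, the slope on 20 other vessel genes with host age in the model, and host age with the mean of those genes set equal. A standard error is the fold change over the square root of F. DESeq2 1.42.0 and limma 3.58.1 (voom with sample weights), other scalings and filters, and each tumour left out were alternatives, and slopes on other cell type lists and the exclusion of 4 tumours were added after seeing the data. The steps were tested on simulated data.

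The 10 genes and all 20 lists, the genes themselves being one, were chosen with earlier results of these data known. The named genes were the 10, the 3 with the smallest p for age of each list used, and the 5 most alike. Tek, Kdr, Cldn5, Sox17, Plvap, Angpt2, Gp1ba, Gp6, Gp9, Pf4, Prox1, Gdf2 and Bmp10 were added after their values were seen. 3 list genes (Ccl21a, Hba-a1 and Hbb-bt) were not analysed here. Nothing in the labels says how independent the tumours of a group are beyond separate mouse numbers. Between any 2 libraries, chi-square per degree of freedom was at least 44.8, so none repeated another.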

Additional observations from a re-analysis of the deposited data

Results flagged for a closer look

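In 4 of the 60 sets of 4 tumours examined, 1 tumour stood far from the other 3 of its host group by Dixon's criterion, which chance alone meets in about 1 in 20 sets. Egfl7 was at 5.19 log2 CPM in young 43, below the other young tumours at 5.49 to 5.55. The mean of the red cell list was 4.34 log2 CPM in aged 46, above the other aged tumours at 3.46 to 3.59. The mean of the macrophage list was 7.85 log2 CPM in young 43, below the other young tumours at 8.26 to 8.32. The mean of the muscle list was 2.14 log2 CPM in young 40, above the other young tumours at -0.36 to 0.06.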

How the results depend on the processing

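No endothelial identity gene passed an adjusted p of 0.05 for host age, for the slope on the vessel genes or for host age relative to them under any alternative. No paired analysis was possible because the groups share no mouse numbers. Over all genes, host age gave 0 calls with edgeR, 43 with DESeq2 and 9 with limma voom. Relative to the vessel genes it gave 0 calls, 73 without aged 50, young 36 and aged 51, and 157 without young 37 as well. The slope gave 0 calls on the vessel genes, 0 to 1 with each tumour left out (1 without aged 50), 2 without aged 50, young 36, aged 51 and young 37, 636 on the mural list, 157 on the macrophage list, 5 on the fibroblast list and 1474 on the T cell list. With limma voom the age difference turned to 0.02 for Cdh5, 0.03 for Egfl7 and 0.04 for Esam. Without aged 50, young 36 and aged 51 the age difference turned to -0.01 for Elf1, -0.24 for Eng, -0.73 for Fabp4, 0.19 for Pdpn, -0.07 for Pecam1, -0.22 for Robo4 and -0.13 for Tie1. Without aged 50, young 36 and aged 51 the difference relative to the vessel genes turned to 0.08 for Egfl7, -0.1 for Eng and -0.1 for Robo4. Without young 37 as well, the age difference turned to -0.05 for Elf1, -0.37 for Eng, -0.24 for Fabp4, 0.27 for Pdpn, -0.09 for Pecam1, -0.29 for Reln, -0.3 for Robo4, -0.14 for Sema3g and -0.13 for Tie1, and the relative difference to 0.15 for Egfl7, -0.23 for Eng, 0.03 for Esam and -0.17 for Robo4. Without aged 50 and young 36 the age difference turned to 0.04 for Emcn and -0.07 for Eng. Without aged 50 and young 36 the difference relative to the vessel genes turned to -0.03 for Eng and 0.02 for Esam. With the median of the vessel genes the difference relative to the vessel genes turned to -0.02 for Emcn. On the mural list the slope turned to -0.07 for Cdh5, -0.02 for Emcn and 0 for Pecam1. On the macrophage list the slope turned to -0.14 for Cdh5. On the T cell list the slope turned to -0.1 for Cdh5, -0.01 for Esam, -0.04 for Pecam1 and -0.06 for Robo4. With each tumour left out in turn, the age difference ranged from -0.14 to 0.01 for Emcn, -0.03 to 0.22 for Eng, -0.2 to 0.03 for Esam, -0.48 to 1.36 for Fabp4, -0.11 to 0.27 for Pecam1, -0.68 to 2.76 for Ppbp, -0.14 to 0.24 for Robo4 and -0.14 to 0.15 for Tie1. Relative to the vessel genes it ranged from -0.19 to 0.01 for Cdh5, -0.15 to 0.03 for Egfl7, -0.08 to 0.07 for Emcn, -0.02 to 0.16 for Eng, -0.08 to 0.01 for Esam, -0.01 to 0.2 for Pecam1, -0.03 to 0.21 for Robo4 and -0.03 to 0.1 for Tie1. The cause of these changes was not tested. The number of the 10 genes with a rising slope at an unadjusted p under 0.05 was 7 with all tumours, 2 without aged 46, 4 without aged 50, young 36 and aged 51 and 3 without young 37 as well. For Vwf the age difference stayed between 0.69 and 1.19 and the relative difference between 0.83 and 1.18 under all alternatives run.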

Other observations

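Lists for kinds of blood vessel gave no gene past an adjusted p of 0.05 by edgeR. The share of all genes at an unadjusted p under 0.05 was 4.99%, in either direction. Of 7 tip cell genes, which mark the leading cells of vessel sprouts, 0 were higher and 7 lower in aged tumours by edgeR. Their median log2 fold change was -0.613 against 0.031 over all genes tested, and 2 were past an unadjusted p of 0.05. The smallest difference was that of Angpt2 at -0.03 ± 0.20, which was 0.16 by limma voom. The part of other cell types in these levels was not tested. Dll4, the Notch ligand of tip cells, was at 11.2, 13.6, 6.20 and 6.85 CPM in aged 46, 47, 50 and 51 and at 15.4, 15.8, 15.3 and 15.7 CPM in young 36, 37, 40 and 43. The groups did not overlap. Apln, the apelin peptide, was at 23.4, 19.5, 17.3 and 11.2 CPM in the aged and at 21.7, 29.9, 24.7 and 40.8 CPM in the young tumours, with aged 46 above young 36. The log2 fold changes were -0.71 ± 0.25 for Dll4 and -0.70 ± 0.26 for Apln. By edgeR the unadjusted p of Dll4 was 0.021 with all tumours and 0.054 without aged 51. That of Apln was 0.024 with all tumours, and 0.053, 0.055 and 0.076 without aged 50, aged 51 or young 43. Without aged 50, young 36 and aged 51 together, Dll4 was at -0.30 (unadjusted p 0.1355) and Apln at -0.53 (unadjusted p 0.0986). The slopes of these genes on the vessel mean were -0.17 ± 0.61 and -0.94 ± 0.56, against a median of 1.06 for the 10 endothelial identity genes; the difference was not tested.

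Of 7 arterial genes 5 were higher and 2 lower in aged tumours, with a median of 0.439, and none was past an unadjusted p of 0.05. Sema3g, a semaphorin of arterial endothelium, was at 3.56, 14.0, 9.12 and 13.9 CPM in the aged and at 5.06, 5.69, 9.57 and 9.88 CPM in the young tumours, and its slope on the vessel mean was 2.78 ± 0.63. Of 5 venous genes 3 were higher and 2 lower, none past it. Of 5 capillary genes tested 3 were higher and 2 lower, with 1 in each direction past it. Cd36, a fatty acid transporter of capillaries, adipocytes and muscle, was at 12.5, 53.3, 37.9 and 180.5 CPM in the aged and at 5.65, 20.8, 18.5 and 21.9 CPM in the young tumours, a log2 fold change of 2.13 ± 0.76. Without aged 51 it was 1.02, and its unadjusted p by edgeR went from 0.021 to 0.095. Without aged 50 and young 36 as well, it was 0.68, with an unadjusted p of 0.238. Its highest value was in aged 51, the tumour with the highest mean of the muscle list, 4.00 log2 CPM. Fabp4 of the capillary list was also highest there, at 397.7 CPM against 27.65 to 156.3 CPM in the others. The part of muscle or adipocytes in the Cd36 level was not tested. Of 4 genes of endothelium under flow 2 were higher and 2 lower, with 1 of the lower ones past it. Klf2, a transcription factor induced by flow, was at 40.1, 60.6, 42.9 and 59.1 CPM in the aged and at 37.6, 28.8, 51.9 and 22.1 CPM in the young tumours (0.54 ± 0.26). Thbd, the anticoagulant receptor thrombomodulin, was at 46.7, 67.3, 39.6 and 30.4 CPM in the aged and at 72.2, 57.2, 81.9 and 72.7 CPM in the young tumours (-0.62 ± 0.22). Vwf, which promotes clotting, was higher in aged tumours at an unadjusted p of 0.0095 by edgeR. Thbd was lower at 0.020 (0.051 without aged 50 and 0.050 without young 40). Neither passed the adjusted threshold, and clotting genes as a group were not tested. Without aged 50, young 36 and aged 51 the unadjusted p was 0.1255 for Vwf and 0.221 for Thbd, whose fold change was then -0.28.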
